A study of Mus musculus with 13 samples.

Results

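The p53 target genes examined here are 34 genes that the transcription factor p53 is known to switch on in mammalian cells. The list was given by symbol, with no threshold on a measured value in its rule, though it was drawn up with earlier results of these data known. The symbols were matched to the gene identifiers of the mouse annotation, and all 34 were found among the 57010 genes of the count files. RNA was sequenced from wild-type (WT) mouse embryonic fibroblasts (MEFs), which are primary cells grown out of minced mid-gestation embryos, kept under low oxygen. The 4 groups were control MEFs not exposed to etoposide, untreated senescent MEFs (2 μM etoposide for 24 h and then 5 days in normal medium), and senescent MEFs made in the same way that then received Fucoidan-FV for 12 h before lysis, either 100 μg/mL or the higher dose of 300 μg/mL. Fucoidan-FV is the sulfated fucose polymer of the seaweed Fucus vesiculosus. Every group has cells labelled mouse 4, 5 and 6, and control mouse 5 has libraries 5(1) and 5(2), which were summed to 1 sample. The labels spell the treatment of the untreated senescent samples Eo and that of the Fucoidan-FV samples Eto, and all of them are called senescent in the labels.

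p53 is a tetramer that binds DNA through a pair of adjoining half-sites. Its level is held low by the ubiquitin ligase Mdm2, and etoposide, which traps topoisomerase II on broken DNA, frees p53 from this control through the kinases of the DNA damage response. The genes it then switches on arrest growth, feed back on p53, supply nucleotides for repair, change metabolism or start cell death, and in fibroblasts a lasting p53 response is part of senescence. The 34 genes fall by role into 5 groups: 6 regulators of p53 itself, 9 growth brakes and signalling genes, 2 genes of nucleotide supply and lesion bypass, 6 genes of metabolism and transport, and 11 genes of cell death and autophagy.

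To show the DNA element through which p53 acts, the 5001 bases around the annotated start of each gene (2500 on each side, GRCm39) were searched on both strands for 2 adjoining p53 half-sites of 10 bases each. The fixed C and G of each half-site had to be kept, and up to 2 other bases could differ. Of the 34 members, 1 had a site without a mismatch (2.94%, against 0.104% of 13445 protein-coding genes tested), 4 had a site with at most 1 mismatch (11.8% against 0.803%), and 7 had a site with at most 2 (20.6% against 5.44%). No site passed this search in the other members, among them Mdm2, Crip2, Dcxr, Ephx1 and Ak1. The sites below are those of the 7 members except Pidd1, whose sites are described after them. Zmat3 has the match without a mismatch. Each is written on the strand of its gene, capitals mark bases that match the half-site motif and lower case marks mismatches.
Zmat3, chr3:32418480-32418499, minus strand, intron 1: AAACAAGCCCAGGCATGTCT
Ccng1, chr11:40645763-40645782, minus strand, intron 1: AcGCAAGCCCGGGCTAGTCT
Ccng1, chr11:40646289-40646308, minus strand, upstream: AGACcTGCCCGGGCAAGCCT
Rps27l, chr9:66853578-66853597, plus strand, intron 1: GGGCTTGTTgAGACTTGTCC
Bloc1s2, chr19:44136711-44136730, minus strand, upstream: cAGCATGCTTAGACTTGTCC
Eda2r, chrX:96420140-96420159, minus strand, intron 1: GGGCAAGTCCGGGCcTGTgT
Perp, chr10:18718782-18718801, plus strand, upstream: AttCTAGCCCAGGCTTGCCC
Counted from the annotated start, the upstream sites lie at −170 for Ccng1, −1845 for Bloc1s2 and −1933 for Perp. Pidd1 had a pair of sites with 2 mismatches each in an exon. The sequences were read from the reference genome, not from the samples, and a match does not show that p53 was bound there.

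The libraries held 22782536 to 31278750 expected counts, and 15034 genes with enough counts were tested, all 34 members among them. Levels are given as CPM, the counts of a gene scaled by library size and TMM factor, as mean ± SD of 3 mice, and levels of different genes are compared only as TPM, which divides by gene length. A gene was called changed at an adjusted p under 0.05 in edgeR's quasi-likelihood test (Benjamini-Hochberg over all tested genes), and a DEG also had an absolute log2 fold change over 1. Of 8 fibroblast markers, 7 or 8 reached a mean of 1 CPM in every group, with Lum and Dcn low in control MEFs. Summed markers were at most 16.6 CPM for macrophages, 11.7 CPM for endothelium, 2.24 CPM for epithelium and 1.47 CPM for skeletal muscle, while neural markers summed to 37.5 to 107 CPM, from Tubb3, Stmn2 and Map2. In 1081 genes with over 95% of their sequence in a single transcript, the libraries deviated by a median of −1.35 (control mouse 6) to 1.10 (mouse 5 at 100 μg/mL) on the log2 scale. Libraries 5(1) and 5(2) of control mouse 5, which were summed, deviated in opposite directions, by −1.09 and 0.744. In the library of senescent mouse 6, genes up to 1000 bases long lay a median of 0.75 above, and those over 6000 bases 1.09 log2 units below, their means.

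In senescent against control MEFs, 12 of the 34 p53 target genes rose and 1 fell. The count of 13 was 7 without control mouse 5 or in a fit of only these 2 groups, 8 without control mouse 4 and 8 without senescent mouse 4. Calls over all genes fell in these fits too, from 1765 to 1298, 765, 1172 and 1346 in that order. The increases ran from Ak1 (1.85-fold) and Pidd1 (2.16-fold) to Dcxr (8.72-fold) and Perp, and included Mdm2, the main brake on p53. Dram1, which promotes autophagy, fell. Of all tested genes, 6.11% were called higher and 5.63% lower, against 12 and 1 of the 34 members (38.2% called in either direction, 11.7% of all genes). DEGs were 11 members higher and 1 lower, where 4.47% and 3.95% of all genes were, and 16 members had an unadjusted p under 0.05, as had 25.4% of all genes. In all, 29 members had a positive and 5 a negative log2 fold change, with a median of 0.485 (medians of mice 4, 5 and 6: 0.695, 0.632 and 0.692) and of 0.072 over all tested genes. Control and senescent values were fully separated for 13 members that were higher and 1 that was lower in senescent MEFs, where 14.2% and 12.9% of all genes were. Markers of other cells summed to 3.48 to 4.76 CPM for macrophages in control and 2.72 to 16.6 CPM in senescent MEFs. Ptprc was at 0.0752 ± 0.0668 and 0.75 ± 0.482 CPM, while Cd14 went the other way, at 1.54 ± 1.32 and 0.873 ± 0.513 CPM. Senescent mouse 5 had Csf1r at 8.88 and Itgam at 4.14 CPM, and senescent mouse 4 had 1.5 and 0.0959 CPM. Of the Itgam exonic bases, 67.4% overlap Gm49368 on the same strand. The part of other cells in these differences was not tested. In bulk RNA, a change in the number of expressing cells and a change in RNA per cell cannot be told apart.

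**Figure D1:**
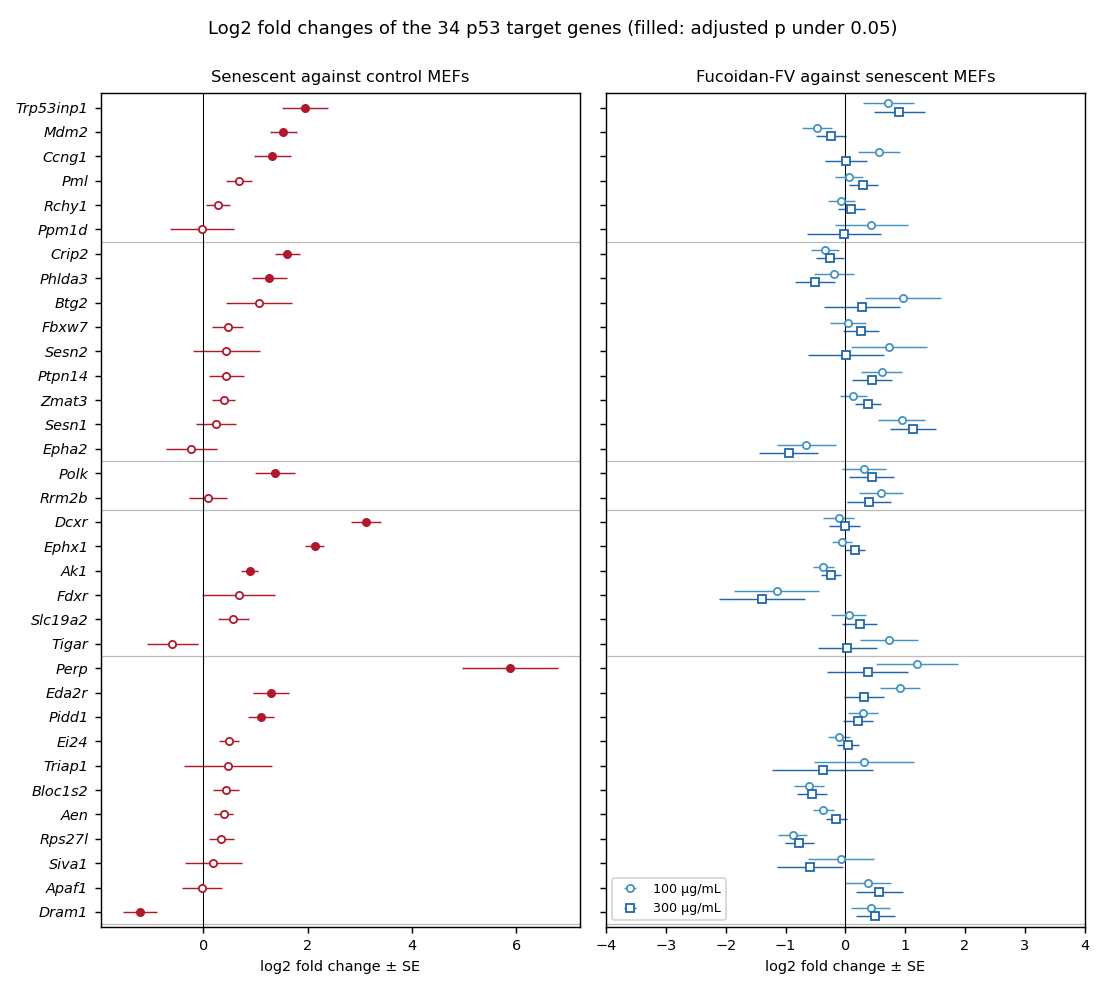
Log2 fold change ± SE (x axis) of each of the 34 p53 target genes (rows, in 5 role groups separated by lines), for senescent against control MEFs on the left and for Fucoidan-FV at 100 μg/mL (circles) and at 300 μg/mL (squares) against untreated senescent MEFs on the right. Filled symbols have an adjusted p under 0.05: 13 genes on the left and 0 on the right.

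Of the 6 regulators of p53 itself, 3 rose in senescent MEFs and 3 did not pass the test, with a group median of 1.00 on the log2 scale. Mdm2, the ubiquitin ligase that targets p53 for degradation, was at 125, 143 and 230 CPM in control mice 4, 5 and 6 and at 510, 590 and 342 CPM in senescent mice 4, 5 and 6. The groups did not overlap, although control mouse 6 was the highest of its group and senescent mouse 6 the lowest. Mdm2 rose by 1.53 ± 0.254 (log2, SE, adjusted p = 0.00174). Trp53inp1, a nuclear protein that promotes phosphorylation of p53, was at 28.7, 47.3 and 79.4 CPM in control and at 203, 311 and 83.6 CPM in senescent MEFs. Here too mouse 6 brought the groups close together, and the log2 fold change was 1.94 ± 0.442 (adjusted p = 0.0121). Ccng1, cyclin G1, which guides a phosphatase to Mdm2, was at 155, 150 and 80.5 CPM in control and at 425, 251 and 290 CPM in senescent MEFs. All senescent samples were above all control samples, a log2 fold change of 1.33 ± 0.357 (adjusted p = 0.0285). The ubiquitin ligase Rchy1 (0.28), the nuclear body scaffold Pml (0.68) and the phosphatase Ppm1d (−0.03) did not pass, with adjusted p of 0.482, 0.0909 and 0.988. Pml was at 97.1 and 101 CPM in senescent mice 4 and 5 but at 52.8 CPM in mouse 6, inside the control range of 47.8 to 54.2 CPM, and its adjusted p was 0.000698 without senescent mouse 6 and 0.0175 with offsets for gene length. The call of Trp53inp1 was lost without control mouse 5 (adjusted p = 0.0511) and in a fit of only these 2 groups (0.0713). That of Ccng1 was lost without control mouse 4 (0.0815), 5 (0.0841) or 6 (0.134), without senescent mouse 4 (0.156) or 6 (0.0505), and with library 5(2) alone for control mouse 5 (0.162).

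**Figure D2:**
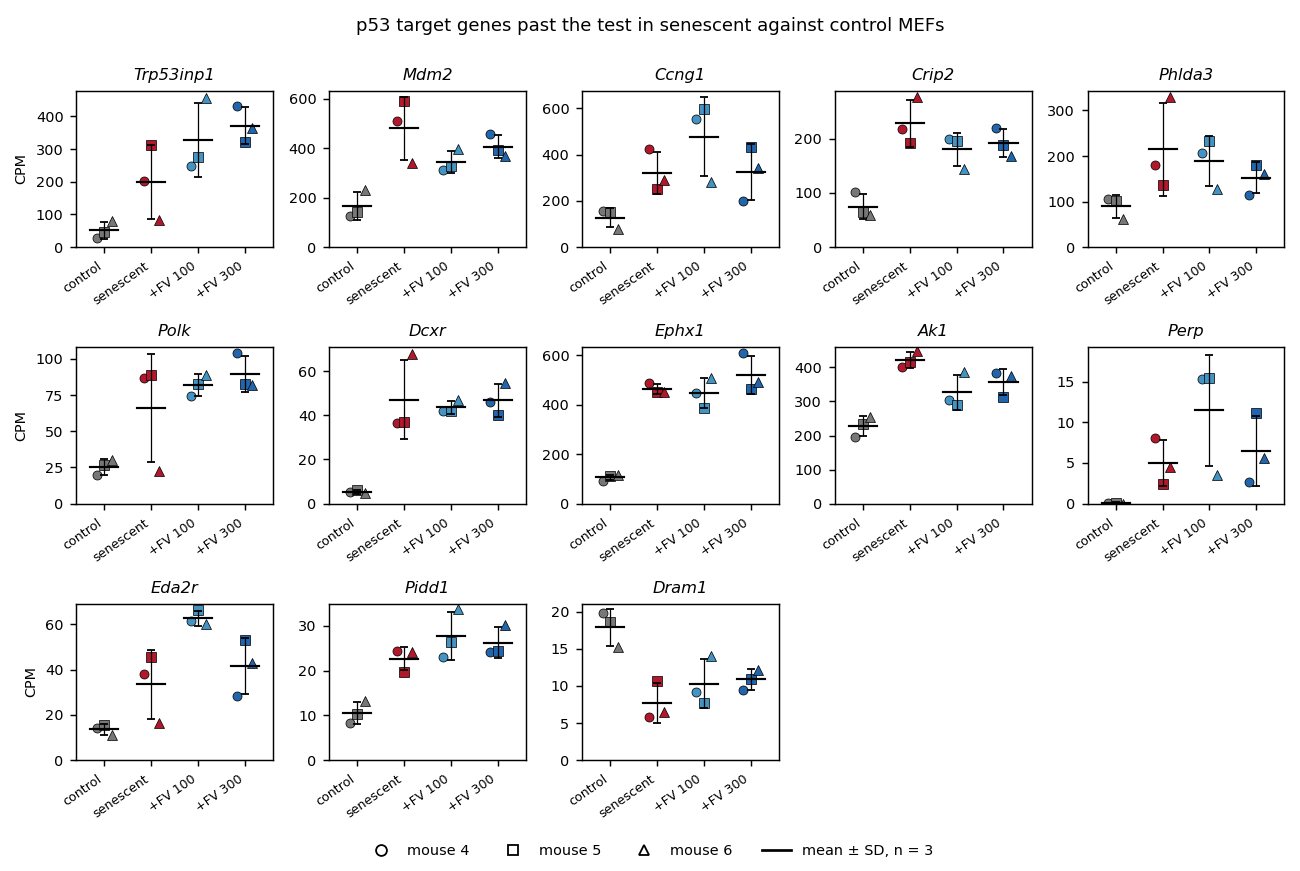
CPM (y axes, from 0, a scale for each gene) of the 13 p53 target genes called between senescent and control MEFs, in control, senescent and Fucoidan-FV-treated senescent MEFs (+FV, μg/mL), with circles, squares and triangles for mice 4, 5 and 6 and lines for the mean ± SD of 3 mice. The senescent samples lie above the control samples for 11 genes, below them for Dram1, and overlap them for Polk, whose senescent mouse 6 is at 22.8 CPM.

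Among the 9 growth brakes and signalling genes, 2 rose and 7 did not pass. Crip2, a LIM-domain protein, was at 101, 64.8 and 58.6 CPM in control mice 4, 5 and 6 and at 217, 192 and 277 CPM in senescent mice. Every senescent sample was well above every control sample, a log2 fold change of 1.61 ± 0.237 (adjusted p = 0.000754). Of the Crip2 exonic bases, 14.0% overlap Gm56510 on the opposite strand. Phlda3, which blocks Akt at the membrane, was at 105, 102 and 60.9 CPM in control and at 180, 136 and 330 CPM in senescent MEFs. The groups did not overlap, mouse 6 held both the lowest and the highest value, and the log2 fold change was 1.27 ± 0.338 (adjusted p = 0.0271). The Phlda3 call depended on single libraries. It was lost without control mouse 4 (adjusted p = 0.0754), 5 (0.0782) or 6 (0.12), without senescent mouse 4 (0.0636) or 6 (0.119), in a fit of only these 2 groups (0.0743), with library 5(2) alone (0.101), and with the mouse as a replicate block (0.0566). Btg2, which slows entry into S phase, had a log2 fold change of 1.07 ± 0.64 (adjusted p = 0.332), and the sestrins Sesn1 and Sesn2, which restrain mTORC1, had 0.24 and 0.44. The RNA-binding protein Zmat3 (0.39), the YAP-restraining phosphatase Ptpn14 (0.44), the ubiquitin ligase subunit Fbxw7 (0.47) and the receptor kinase Epha2 (−0.23) did not pass either. Without senescent mouse 6, Zmat3 (adjusted p = 0.0232) and Ptpn14 (0.0337) were called higher, and without control mouse 6 Fbxw7 was (0.0415). Zmat3 has 93.9% of its sequence in a single transcript. With offsets for that share in the fit, its log2 fold change was 0.06 (adjusted p = 0.968).

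Btg2, Sesn2, Perp and Triap1 had log2 fold changes with SEs of 0.64 to 0.92, wide beside most members. Each of these 4 has a single annotated transcript, and within each of the 4 groups all 4 were lowest in the same library: control mouse 6, senescent mouse 5, mouse 6 at 100 μg/mL and mouse 4 at 300 μg/mL. Those are the libraries with the lowest median deviation of single-transcript genes in their groups (−1.35, −0.92, −0.228 and −1.02). Btg2, for example, was at 11.5, 18.2 and 2.87 CPM in control and at 26.3, 11.7 and 30.6 CPM in senescent mice 4, 5 and 6. When offsets for the share of single-transcript sequence were given to the fit, its log2 fold change was 1.03 with an adjusted p of 0.038. In Btg2, 14.3% of exonic bases also overlap Gm31974 on the opposite strand. The pattern was not limited to single-transcript members. Tigar, Ppm1d, Ccng1 and Phlda3, with 2 annotated transcripts each, were lowest in the same library of each group too. Zmat3 and Rrm2b, with 93.9% and 88.1% of their sequence in a single transcript, were instead highest in control mouse 6. Fdxr, with 4 annotated transcripts, had an SE of 0.704.

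In the library of senescent mouse 6, the longest and the shortest members lay apart. Of the 5 members longer than 4000 bases, 5 were lower in senescent mouse 6 than in the mean of senescent mice 4 and 5, and of the 8 members shorter than 1500 bases, 7 were higher there. The difference ran from −1.92 (log2) for Polk to 1.67 for Triap1. Members of middle length went both ways, with Polk at 2557 bases and Sesn2, at 1.09, at 3475 bases. Triap1 and Sesn2, with a single annotated transcript each, were lowest in senescent mouse 5, at 1.94 and 7.98 CPM. Those values lower the mean of mice 4 and 5 that mouse 6 is set against. Whether length caused these differences was not tested. With that library left out, 16 members were called, among them Pml, Zmat3, Ptpn14, Slc19a2 and Ei24, and Phlda3 and Ccng1 were not. Calls over all genes rose as well, from 1765 in the main fit to 2684 without that library.

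**Figure D3:**
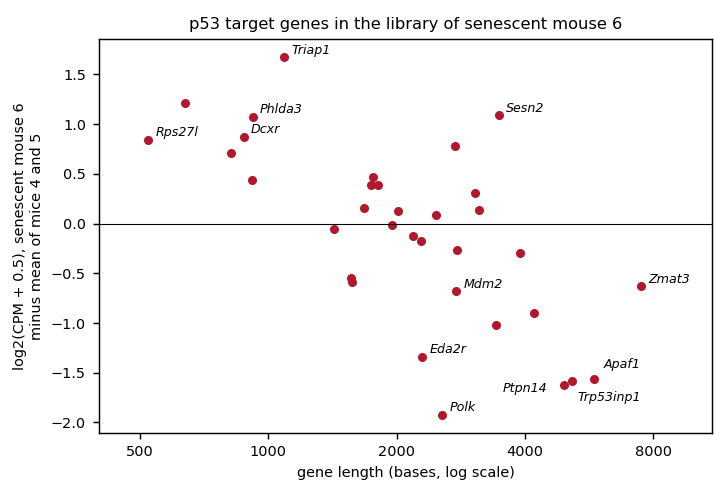
Difference of senescent mouse 6 from the mean of senescent mice 4 and 5, in log2(CPM + 0.5) (y axis), against gene length in bases (x axis, log scale) for the 34 p53 target genes, each a point. Short genes such as Triap1 (1.67) lie above 0, and long genes such as Trp53inp1, Ptpn14 and Apaf1 lie below it. Genes of middle length lie on both sides, such as Sesn2 above and Polk below. Low values in senescent mouse 5 add to the differences of Triap1 and Sesn2.

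Both genes of nucleotide supply and lesion bypass had a positive log2 fold change, and 1 passed the test. Polk, the Y-family polymerase that copies past bulky lesions, was at 19.5, 26.7 and 30.1 CPM in control and at 87.0, 88.8 and 22.8 CPM in senescent mice 4, 5 and 6. Senescent mice 4 and 5 were far above the controls and mouse 6 was among them, so the groups overlapped. The log2 fold change was 1.38 ± 0.382 (adjusted p = 0.0329), and it was 1.79 (0.00012) without senescent mouse 6. The call was lost without control mouse 4 (0.128), 5 (0.091) or 6 (0.0537), without senescent mouse 4 (0.129) or 5 (0.11), in a fit of only these 2 groups (0.154), and with the mouse as a block (0.0748). Rrm2b, the p53-inducible subunit of ribonucleotide reductase, had a log2 fold change of 0.10 ± 0.368 (adjusted p = 0.916).

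The 6 genes of metabolism and transport included the members with the lowest adjusted p. Of these genes, 3 rose and 3 did not pass. Dcxr, a reductase of dicarbonyls and of the sugar L-xylulose, was at 5.10, 6.34 and 4.70 CPM in control mice 4, 5 and 6 and at 36.7, 36.8 and 67.7 CPM in senescent mice. The lowest senescent sample was several times the highest control sample, a log2 fold change of 3.12 ± 0.283 (adjusted p = 3.2e-05). Ephx1, microsomal epoxide hydrolase, which detoxifies epoxides, was at 92.8, 110 and 115 CPM in control and at 489, 452 and 453 CPM in senescent MEFs. Within each group the mice were close to each other, and Ephx1 rose by 2.14 ± 0.176 (adjusted p = 1.7e-05). Ak1, adenylate kinase, was at 195, 234 and 255 CPM in control and at 401, 417 and 447 CPM in senescent MEFs. This increase was even across the mice and smaller, at 0.89 ± 0.172 (adjusted p = 0.00481), so that Ak1 was called without being a DEG. The thiamine transporter Slc19a2 (0.58, adjusted p = 0.249), the mitochondrial reductase Fdxr (0.68, 0.618) and the fructose bisphosphatase Tigar (−0.59, 0.508) did not pass. Without senescent mouse 6, Slc19a2 was called higher (0.0207).

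Of the 11 genes of cell death and autophagy, 3 rose, 1 fell and 7 did not pass. Perp, a tetraspan membrane protein of desmosomes and of the apoptotic response, was nearly silent in control MEFs, at 0.127, 0.0982 and 0.00 CPM, and was at 8.02, 2.46 and 4.49 CPM in senescent mice 4, 5 and 6. In counts this was 8 against 440 over each group, 64.7-fold with a counting interval of 32.5 to 151, and the adjusted p was 0.00119. Its level stayed the lowest of the members in senescent MEFs at 3.89 TPM, where Rps27l was the highest at 1307 TPM. Eda2r, the receptor for ectodysplasin A2, was at 14.2, 15.5 and 11 CPM in control and at 38.2, 45.7 and 16.2 CPM in senescent MEFs. Senescent mouse 6 lay just above the controls, and the log2 fold change was 1.3 ± 0.341 (adjusted p = 0.0257). Pidd1, the scaffold that activates caspase-2, was at 8.24, 10.3 and 13.1 CPM in control and at 24.3, 19.7 and 24.2 CPM in senescent MEFs. The groups were apart in all mice, at 1.11 ± 0.252 (adjusted p = 0.0122), and the call was lost only in the fit of these 2 groups alone (0.0899). Dram1, a lysosomal membrane protein that promotes autophagy, was at 19.9, 18.7 and 15.2 CPM in control and at 5.88, 10.7 and 6.52 CPM in senescent MEFs. It was the only member called lower, with all senescent samples below all controls and a log2 fold change of −1.22 ± 0.324 (adjusted p = 0.0269).

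The calls of Eda2r and Dram1 rested on few libraries. That of Eda2r was lost without control mouse 4 (adjusted p = 0.0879), 5 (0.067) or 6 (0.0935), without senescent mouse 4 (0.0991) or 5 (0.107), with library 5(2) alone (0.0983) and in a fit of only these 2 groups (0.111). That of Dram1 was lost without control mouse 4 (0.063) or 5 (0.054), without senescent mouse 4 (0.073), with library 5(2) alone (0.0644) and in a fit of only these 2 groups (0.0885). The apoptosis nuclease Aen (0.39) and the endoplasmic reticulum protein Ei24 (0.49) were higher in every senescent than in every control sample but did not pass, with adjusted p of 0.187 and 0.108, and Ei24 was called without senescent mouse 6 (0.0151), with offsets for single-transcript share (0.0386) and with at least 10 counts in every sample. The apoptosome scaffold Apaf1 (−0.02), the death adaptor Siva1 (0.19), the mitochondrial survival factor Triap1 (0.48), the lysosome-positioning subunit Bloc1s2 (0.43) and the ribosomal protein Rps27l (0.35) overlapped between the groups. Siva1 shares 27.9% of its exonic bases with Akt1 on the opposite strand, and reads of Rps27l may be divided with its near copy Rps27. The 6 members Mdm2, Crip2, Dcxr, Ephx1, Ak1 and Perp were called in every setting run that tested them.

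p53's own transcript moved the other way. Trp53, the gene of p53, was at 196, 194 and 211 CPM in control and at 113, 117 and 123 CPM in senescent mice 4, 5 and 6, a fall of 1.70-fold (log2 −0.77 ± 0.172, adjusted p = 0.0112). Of 16 genes of p53 and its regulators outside the members, 15 were tested, and 1 rose and 2 fell, Trp53 among them. These 3 are 20% of the 15, where 11.7% of all tested genes were called. Trp73 had too few counts. Cdkn2a, whose product Arf holds Mdm2 in check and whose product p16 blocks the cell cycle, rose by 2.46 ± 0.251 (adjusted p = 7.2e-05), from 45.2 ± 8.41 CPM to 248 ± 89.3 CPM. The checkpoint kinase Chek1 fell with a log2 fold change of −2.81 ± 0.514 (adjusted p = 0.00331). Mdm4, the partner of Mdm2, was at 35.5 ± 3.87 CPM in control and 20.4 ± 9.11 CPM in senescent MEFs (log2 −0.80, adjusted p = 0.115).

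Of 22 other p53 targets outside the members, 6 rose in senescent MEFs and 0 fell, where 6.11% and 5.63% of all tested genes did, with a median log2 fold change of 0.494 against 0.072 over all genes. At an unadjusted p under 0.05 there were 8 of the 22 in edgeR, both directions together, and 25.4% of all genes. Cdkn1a, which encodes the cell cycle inhibitor p21, rose from 468 ± 83.2 CPM to 1652 ± 187 CPM (log2 1.82, adjusted p = 6.8e-05). The death receptor Fas rose by 3.53 ± 0.243 (adjusted p = 7.6e-06), from 4.30 ± 0.592 to 49.8 ± 5.97 CPM. The sulfatase Sulf2 (1.64, adjusted p = 0.000458), the repair nuclease Ercc5 (1.08, 0.00984), the BH3-only protein Pmaip1 (1.78, 0.0115) and the zinc finger gene Zfp365 (0.99, 0.0311) rose as well. Pmaip1 was not called without control mouse 5 (0.0638), and its log2 fold change was 2.58 without control mouse 6. Zfp365 was not called with the mouse as a replicate block (0.0538), without control mouse 4 (0.0898), 5 (0.0587) or 6 (0.0713), without senescent mouse 4 (0.0987) or 5 (0.0941), without mouse 6 at 300 μg/mL (0.0505), or with library 5(1) alone (0.0535). In a fit of only the 2 groups, Pmaip1 (0.0877), Ercc5 (0.0645) and Zfp365 (0.145) did not pass.

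**Figure D4:**
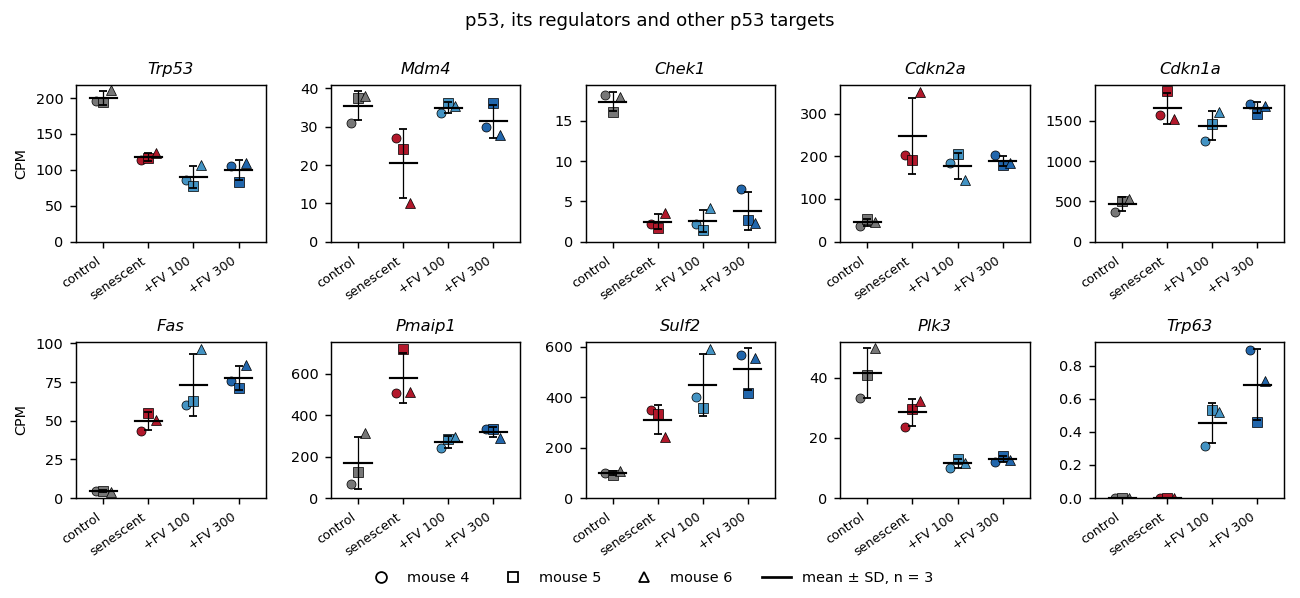
CPM (y axes, from 0, a scale for each gene) of 10 genes of the p53 pathway outside the 34 members, in control, senescent and Fucoidan-FV-treated senescent MEFs (+FV, μg/mL), with circles, squares and triangles for mice 4, 5 and 6 and lines for the mean ± SD of 3 mice. Trp53 is higher in all control than in all senescent samples, and Plk3 is lower in all 6 treated samples than in all untreated senescent samples.

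The second question was whether 12 h of Fucoidan-FV changed these genes in cells that were already senescent. At 100 μg/mL, 0 of the 34 members were called by edgeR, 4 had an unadjusted p under 0.05, and DESeq2 called 1, Rps27l (adjusted p = 0.0334). Over all tested genes, 1.14% were called higher and 2.89% lower (4.02% in all), 1.1% and 1.6% were DEGs, and 19.8% had an unadjusted p under 0.05. Of the members, 20 had a positive and 14 a negative log2 fold change, from −1.15 for Fdxr to 1.2 for Perp, with a median of 0.096 against −0.019 over all genes. The groups did not overlap for 2 members that were higher (Sesn1 and Eda2r) and 4 that were lower (Rps27l, Bloc1s2, Ak1 and Fdxr), against 11.2% and 15% of all genes. The median over all genes shifted with the scaling, up to 0.167 without senescent mouse 4, while the median of the members minus that of all genes stayed between 0.066 and 0.236 in the settings run.

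At 300 μg/mL, 0 of the 34 members were called by edgeR, 3 had an unadjusted p under 0.05, and DESeq2 called 1, Sesn1 (adjusted p = 0.0429). The shares of all genes called higher and lower were 0.778% and 1.12% (1.9% in all), those of DEGs were 0.752% and 0.885%, and 15.3% of all genes had an unadjusted p under 0.05. The members had 21 positive and 13 negative log2 fold changes, with a median of 0.072 against 0.0 over all genes. The groups did not overlap for 3 members that were higher (Trp53inp1, Sesn1 and Zmat3) and 5 that were lower (Rps27l, Bloc1s2, Ak1, Fdxr and Epha2), against 9.41% and 10.2% of all genes. Both dose comparisons use the same untreated senescent libraries, so members that stand out in both are not independent observations. Markers of cell types moved at the doses as well, in both directions. The 5 endothelial markers summed to 1.47 to 3.3 CPM untreated, 5.92 to 11.7 with 100 μg/mL and 5.23 to 8.36 with 300 μg/mL. Mean Tek was 0.481, 5.87 and 4.92 CPM in that order. Mean Kdr, at 0.633, 0.435 and 0.25 CPM, and mean Cdh5, at 0.247, 0.165 and 0.124 CPM, were lower with treatment. Pecam1 and Emcn had higher means with treatment that stayed under 1 CPM. The 5 neural markers summed to 37.5 to 59.8, 71 to 107 and 72.8 to 92 CPM, with Map2 at 2.34, 19.1 and 21.8 CPM on average. Mean Stmn2 went the other way, at 11.9, 11.1 and 8.69 CPM. The 8 fibroblast markers summed to 4599 to 7448, 8895 to 9636 and 5807 to 9667 CPM. Among them mean Dcn was 16.2, 81.6 and 75.7 CPM and mean Thy1 378, 345 and 322 CPM. Their part in the dose results was not tested.

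Rps27l, a ribosomal protein gene, had the lowest p at both doses. It was at 177, 241 and 371 CPM in untreated senescent mice 4, 5 and 6, at 137, 130 and 163 CPM with 100 μg/mL and at 172, 122 and 169 CPM with 300 μg/mL. All treated samples were below all untreated senescent samples, the highest of which is the library with high counts of short genes, and Rps27l is the shortest member at 523 bases. Its log2 fold changes were −0.88 ± 0.243 (adjusted p = 0.06) and −0.77 ± 0.242 (0.13) in the order of the doses, and without senescent mouse 4 both passed (0.0317 and 0.04), as they did without a filter on low counts (0.0213 and 0.0485). Bloc1s2, another short gene, was at 26.8, 29.0 and 46.0 CPM in untreated senescent MEFs, at 22.0, 21.2 and 23.3 CPM with 100 μg/mL and at 24.5, 20.2 and 24.5 CPM with 300 μg/mL. All treated values were below the untreated senescent ones, at log2 −0.62 ± 0.25 (adjusted p = 0.189) and −0.56 ± 0.249 (0.305). With offsets for gene length the log2 fold changes of Rps27l were −0.36 and −0.27 (adjusted p = 0.288 and 0.554) and those of Bloc1s2 were −0.12 and −0.07 (0.777 and 0.93). Without senescent mouse 6 those of Rps27l were −0.40 (0.208) and −0.39 (0.244), and those of Bloc1s2 were −0.18 (0.639) and −0.23 (0.723).

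Sesn1, a sestrin that restrains mTORC1, was at 10.1, 7.98 and 11.2 CPM in untreated senescent mice 4, 5 and 6, at 13.8, 14.6 and 27.8 CPM with 100 μg/mL and at 29.1, 15.8 and 19.5 CPM with 300 μg/mL. Every treated sample was above every untreated senescent sample, with log2 fold changes of 0.94 ± 0.385 (adjusted p = 0.194) and 1.14 ± 0.386 (0.16). Of its exonic bases, 10.9% overlap Cep57l1 on the opposite strand. Eda2r was at 61.4, 66.4 and 60.2 CPM with 100 μg/mL and at 28.4, 53.2 and 42.7 CPM with 300 μg/mL. The samples at 100 μg/mL were above the 3 untreated senescent samples and above the 3 at 300 μg/mL, with a log2 fold change of 0.91 ± 0.336 (adjusted p = 0.149) against untreated senescent MEFs. At 300 μg/mL Eda2r overlapped the untreated senescent values (0.31, adjusted p = 0.736).

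**Figure D5:**
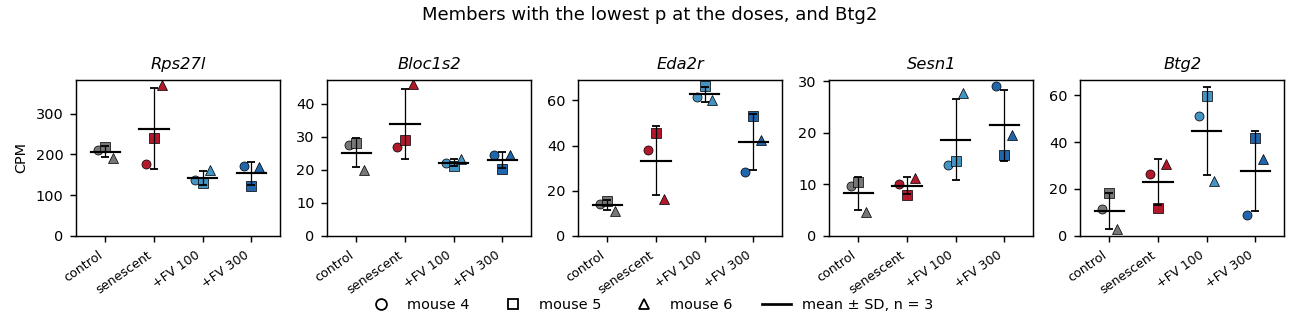
CPM (y axes, from 0, a scale for each gene) of the members with the lowest p in the dose comparisons and of Btg2, in control, senescent and Fucoidan-FV-treated senescent MEFs (+FV, μg/mL), with circles, squares and triangles for mice 4, 5 and 6 and lines for the mean ± SD of 3 mice. Rps27l and Bloc1s2 are lower and Sesn1 is higher in all 6 treated than in all untreated senescent samples, and the lowest Btg2 value of each group belongs to the library with the lowest counts of single-transcript genes.

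The members that rose with senescence were not called at either dose in the main edgeR fit. Without a filter on low counts, edgeR called Eda2r higher at 100 μg/mL (log2 0.995, adjusted p = 0.0298). Mdm2 was at 345 ± 44.6 CPM with 100 μg/mL and at 406 ± 46.5 CPM with 300 μg/mL, against 481 ± 127 CPM untreated, with log2 fold changes of −0.48 (adjusted p = 0.312) and −0.25 (0.718). Every treated Mdm2 sample, at 313 to 457 CPM, was above the highest control sample at 230 CPM. Ephx1 (447 ± 59.9 and 521 ± 77 CPM) and Dcxr (43.6 ± 2.82 and 46.8 ± 7.47 CPM) had log2 fold changes of −0.11 to 0.17 from the untreated senescent means of 465 ± 21 and 47.1 ± 17.9 CPM, with adjusted p from 0.721 to 0.995. The picture differed in TPM, which was not tested. From untreated to the higher dose, mean TPM was 518, 672 and 709 for Ephx1 and 97.3, 128 and 124 for Dcxr. For Mdm2 it was 256, 244 and 250. The shift between CPM and TPM was not particular to Ephx1 and Dcxr. The median of the mean TPM of the 34 members was 33.65, 51.2 and 42.8 in the same order. Trp53, outside the members, had mean TPM of 98.7, 102 and 103 at mean CPM of 118, 89.7 and 99.4. Trp53inp1 was at 328 ± 113 and 372 ± 55.9 CPM against 199 ± 114 CPM untreated (log2 0.72 and 0.90, adjusted p = 0.384 and 0.339), and senescent mouse 6, low in long genes, was at 83.6 CPM. Perp ranged from 3.56 to 15.5 CPM and from 2.68 to 11.2 CPM at the doses. Dram1, at 10.3 ± 3.28 and 10.9 ± 1.39 CPM, had log2 fold changes of 0.42 (adjusted p = 0.513) and 0.50 (0.515).

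Between the doses, 0 of the 34 members were called by edgeR or DESeq2 and 0 had an unadjusted p under 0.05, where 0.00665% of all genes were called and 0.625% had an unadjusted p under 0.05. The median log2 difference of the members, 300 μg/mL minus 100 μg/mL, was 0.086 against 0.075 over all genes. Eda2r, lower at 300 μg/mL (−0.60, adjusted p = 0.97), was the 1 member whose values did not overlap, while 2.45% of all genes were lower without overlap.

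Of the pathway genes outside the members, 1 of the 15 regulators and 1 of the 22 other targets were called at each dose, the same genes in both comparisons, which share the untreated senescent libraries. That is 6.67% of the regulators and 4.55% of the other targets, where 4.02% of all tested genes were called at 100 μg/mL and 1.9% at 300 μg/mL. Plk3, a stress-response kinase, was at 23.6, 29.8 and 32.3 CPM in untreated senescent MEFs, at 10, 13 and 11.8 CPM with 100 μg/mL and at 12.1, 14.1 and 12.5 CPM with 300 μg/mL. It fell by 1.3 ± 0.236 (log2, adjusted p = 0.01) and by 1.15 ± 0.235 (0.0264), to levels below those of control MEFs (33.4 to 50.1 CPM). The call at 100 μg/mL was lost without senescent mouse 5 (0.0577), without treated mouse 4 (0.0683) or with only these 2 groups (0.0729). That at 300 μg/mL was lost without control mouse 5 (0.0648), senescent mouse 5 (0.0749) or 6 (0.0712), treated mouse 4 (0.0882), 5 (0.0774) or 6 (0.15), or with only these 2 groups (0.102). Trp63, the p53 relative of epithelia, had 0 counts in control and untreated senescent MEFs, 39 counts over 3 mice at 100 μg/mL and 53 at 300 μg/mL. Set against a floor of 3 counts over the group this was at least 14.3-fold and at least 20.4-fold higher, with adjusted p of 0.0427 and 0.0439, at 0.313 to 0.892 CPM. With the mouse as a replicate block these were 0.0927 and 0.118, and each call was lost in 15 of the 22 alternative settings that tested the gene, including every leave-out of a senescent or treated mouse. Trp53 was at 89.7 ± 15.5 and 99.4 ± 13.8 CPM and Cdkn1a at 1440 ± 180 and 1660 ± 67 CPM at the doses, with adjusted p from 0.225 to 0.994 against untreated senescent MEFs.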

How the data were processed

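Mouse embryonic fibroblasts of 4 groups were sequenced in 13 libraries, 3 mice per group. The authors checked reads with FastQC 0.12.1, trimmed them with Trimmomatic, aligned them to GRCm39 with STAR 2.7.11b and deposited expected counts and TPM per gene from RSEM 1.3.1 (names per the labels). The libraries were made with a stranded total RNA kit, and whether counting used the strand is not given in the sources used here. Of 57010 genes, 56310 matched the GENCODE annotation. The members and lists were chosen with earlier results of these data known.

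Expected counts were rounded, libraries 5(1) and 5(2) were summed, and filterByExpr (count at least 10, total at least 15) left 15034 genes. These were fitted with edgeR 4.0.16 in R 4.3.3 (quasi-likelihood test, TMM factors, 4 groups together, Benjamini-Hochberg adjustment). All members are named. CPM per sample is given for members called between senescent and control MEFs and for the 3 with the lowest p at each dose, and pathway genes are named where called, with Trp53, Mdm4 and Cdkn1a. Counting intervals and floors cover counting error only. As alternatives, the members were refitted with DESeq2 1.42.0, with RLE factors, with looser (1 count) and stricter (10 counts in each sample) filters, with only the 2 groups compared, with a block for the mouse, with either library of control mouse 5 alone, with offsets for single-transcript share or for gene length (the latter chosen after seeing the data), and without each sample in turn. The labels number the mice alike in every group, and the block rests on these labels. Once group means were removed, same-numbered samples correlated at a median of −0.00627 (18 pairs, lowest −0.204, highest 0.425), 8 of them above 0.1.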

Additional observations from a re-analysis of the deposited data

How the results depend on the processing

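Of the genes called, and the 3 members with the lowest p in each comparison, none changed direction past the threshold in a setting run. For senescent against control MEFs, 13 members were called and 12 were DEGs, and a fit of only these 2 groups gave 7 and 6. The median log2 fold change of 0.485 was 0.597 with the mouse as a replicate block, 0.575 with library 5(1) alone and 0.442 with offsets for single-transcript share. Leaving out 1 sample in turn gave 7 to 16 called members, 6 to 12 DEGs and medians of 0.482 to 0.616. The fewest were called without control mouse 4 (8, with 6 DEGs), control mouse 5 (7, with 6) and senescent mouse 4 (8, with 7). Over all genes, 1172, 1298 and 1346 were called in these fits, against 1765 in the main fit.

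At 100 μg/mL, 1 member was called with DESeq2 and 2 without a filter, Rps27l and Eda2r. The median of 0.096 was 0.179 with DESeq2 and with RLE factors, 0.17 without a filter, 0.198 with 10 counts in every sample, 0.182 with only the 2 groups and 0.263 with length offsets. At 300 μg/mL, 1 member was called (and was a DEG) with DESeq2 and 2 were called without a filter. Between the doses the median was −0.011 with offsets for single-transcript share and −0.007 with these offsets and the replicate block. With 1 sample left out, 0 to 1 members were called and 0 were DEGs at each dose, with medians of 0.061 to 0.345 at 100 μg/mL and 0.012 to 0.277 at 300 μg/mL, and 0 were called or DEGs between the doses, with medians of −0.014 to 0.128. The replicate block ended the calls of Phlda3, Polk, Zfp365 and Trp63 given beside them and no other call named.

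With 3 mice a group, the SEs of the members ran from 0.17 to 0.92 on the log2 scale, so the precision differs widely between them.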
